A study of Mus musculus with 9 samples.

Results

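The genes described here make up the membrane-fusion machinery of regulated secretion: SNARE proteins, synaptotagmins and the proteins that work with them. They were chosen by name, as the protein-coding genes of the table whose symbols belong to the families Syt, Sytl, Stx, Stxbp, Vamp, Cplx, Rims, Unc13, Rab3 and Rab27, together with Snap23, Snap25, Snap29, Snap47, Rph3al, Pclo and Rapgef4. The rule found 76 genes among the 54876 in the table, and used no measured value. Of the 76, 55 were tested, among 12300 genes tested in all: those that reached 1 FPKM (fragments per kilobase of gene and per unit of library size) in 3 or more of the 9 libraries.

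RNA came from MIN6 cells, a line derived from a mouse insulinoma that secretes insulin in response to glucose and stands in for the pancreatic beta cell. The cells were kept for 24 h in low-arginine medium (0.1 times the standard concentration), standard-arginine medium (1 times) or high-arginine medium (20 times), with 3 libraries for each. The labels give the cells as MIN6, strain C57BL/6, and name no genetic change. Nothing in them says that replicates came from separate cultures, and the p-values therefore cover no more than the scatter of these samples, possibly technical scatter. As bulk RNA from a single tumour-derived line, the libraries carry no information on secretion itself or on protein.

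Insulin is stored in dense-core granules that fuse with the plasma membrane when calcium enters the cell. A vesicle SNARE on the granule (Vamp2 in the textbook beta cell) zips together with syntaxin and Snap25 on the plasma membrane, guided by Munc18 proteins. Rab3 and Rab27a with their effectors bring granules to the membrane, Munc13 and Rim proteins prime them, and synaptotagmins and complexins couple fusion to calcium.

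Most changes of these genes were seen in low arginine. Against standard arginine, 7 of the 55 tested genes rose and 26 fell by limma's moderated test at an adjusted p under 0.05, whereas against the same standard libraries high arginine gave 0 rises and 1 fall, that of Snap25. The priming factor Unc13a, the calcium-binding synaptotagmins Syt3 and Syt2, the granule GTPase Rab3d, its effector Rph3al and the plasma membrane syntaxin Stx4a had the largest falls in low arginine on the log2(FPKM + 1) scale, together with Vamp4 and Sytl1. Sytl1, and Syt1 among the 26 that fell, passed the filter only through the other media, where they are higher. Cplx2, Stxbp3, Sytl4 and Stx1a were among the 7 that rose. Whether a gene's RNA per cell or the make-up of the culture differed cannot be told apart in bulk samples.

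The changes have to be read against a transcriptome in which most genes moved. Over all 12300 genes, 62.2% were called in low against standard arginine, 30.3% higher and 31.9% lower. Among the 55 genes 60.0% were called, a share near that of all genes, with 12.7% higher and 47.3% lower. The median log2 change was -0.15 over the 55 genes and 0.00 over all genes tested, with 37 of the 55 below 0 and 18 above. The split of the calls depended on the scaling: with values rescaled to the same sum in each library (TPM), 13 of the 55 rose and 18 fell, while over all genes the share of calls that were rises moved to 61.6%, against 48.7% as deposited. That scaling moved the median of all genes by about 0.1, to 0.12, and the median of the 55 to -0.07, so the median of the 55 stayed below that of all genes. In 35 genes the low-arginine libraries did not overlap the standard ones, against 65.4% of all genes. They were higher in 9 of them and lower in 26, against 32.0% and 33.4% of all genes.

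The 4 starts printed here belong to the genes with the 2 largest falls and the 2 largest rises in low arginine on that scale among those with 1 RefSeq promoter window that begins within 500 bases of the start in the table. They are shown so that the sequence before each start can be set beside the values that follow. Each runs 5′ to 3′ on the gene's own strand, over the 250 bases before the RefSeq start in GRCm38, in lower case. They lie at chr7:44383876-44384125 on the plus strand for Syt3, chr8:71671758-71672007 on the minus strand for Unc13a, chr3:108840503-108840752 on the minus strand for Stxbp3 and chrX:133981813-133982062 on the minus strand for Sytl4. Capitals mark the one match to the letters searched.
Syt3: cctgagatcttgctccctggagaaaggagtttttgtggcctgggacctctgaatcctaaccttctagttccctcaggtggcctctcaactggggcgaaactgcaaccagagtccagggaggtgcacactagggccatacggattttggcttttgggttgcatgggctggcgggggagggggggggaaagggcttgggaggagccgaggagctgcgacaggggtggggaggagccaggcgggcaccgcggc
Unc13a: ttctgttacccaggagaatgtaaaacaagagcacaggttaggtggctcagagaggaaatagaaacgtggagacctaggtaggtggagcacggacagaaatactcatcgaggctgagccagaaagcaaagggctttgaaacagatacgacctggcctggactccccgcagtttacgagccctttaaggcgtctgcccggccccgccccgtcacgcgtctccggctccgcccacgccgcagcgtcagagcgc
Stxbp3: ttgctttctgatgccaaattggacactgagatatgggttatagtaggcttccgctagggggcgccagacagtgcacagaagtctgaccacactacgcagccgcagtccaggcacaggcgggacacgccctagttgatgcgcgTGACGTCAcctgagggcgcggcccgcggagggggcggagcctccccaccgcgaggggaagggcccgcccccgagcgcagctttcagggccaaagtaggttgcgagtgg
Sytl4: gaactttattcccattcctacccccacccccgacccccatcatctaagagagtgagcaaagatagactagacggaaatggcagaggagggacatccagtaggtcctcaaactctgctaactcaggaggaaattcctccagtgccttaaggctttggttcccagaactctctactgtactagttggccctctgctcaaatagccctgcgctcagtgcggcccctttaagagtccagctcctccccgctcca

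The GC content of these 4 sequences was 62.4% for Syt3, 58.0% for Unc13a, 64.4% for Stxbp3 and 53.2% for Sytl4. RefSeq windows of 300 bases were at hand for 58 of the 76 genes, 71 windows in all. Over the 250 bases before the start, their median GC content was 60.4%, against 52.4% over all 32851 windows. The letters TGACGTCA, the core to which CREB-type factors bind, occurred on either strand in the windows of 1 of the 58 genes (1.72%) and in 1.79% of all windows. That gene is Stxbp3, where the match begins 108 bases before the start. CACGTG, an E-box, was found in 8 of the 58 genes (13.8%), which is 12.7% of their windows, against 7.15% of all windows. The 8 genes were Cplx3, Rab27a, Stx6, Stxbp2, Syt14, Syt6, Unc13b and Vamp4, a set that mixes genes that fell, genes that were not called and genes near 0 FPKM. TGATGNAA, the letters of a composite site for C/EBP and ATF factors, was found in 1 of the 58 genes, Syt1 (1.72%), against 3.97% of all windows. None of these matches overlapped another searched motif in the 4 windows printed, and a match is a description of letters, not a bound site.

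The plasma membrane SNAREs differed most in which syntaxin was present. The syntaxins of the plasma membrane summed to 32.0 ± 0.817 FPKM in low arginine, 37.9 ± 1.06 in standard arginine and 37.1 ± 0.316 in high arginine (SD, n = 3). Stx4a, the syntaxin of general and insulin-granule fusion at the plasma membrane (chromosome 7, GRCm38 127824294 to 127849019), had 9.36, 9.39 and 9.36 FPKM in low arginine, 16.6, 17.0 and 15.97 in standard arginine and 16.4, 15.8 and 15.95 in high arginine. The 3 low-arginine libraries had an SD of 0.0174 FPKM and lay well below every other library. Stx4a fell by 0.76 in low against standard arginine, on the log2(FPKM + 1) scale used for every log2 change here, which understates changes of low genes (SE 0.05, limma adjusted p = 4.41e-07), and its log2 change in high arginine was -0.04. Stx1a (chromosome 5, 135023482 to 135051100), the partner of Snap25 in regulated secretion, rose. Stx1a had 10.6, 11.6 and 9.60 FPKM in low arginine, 8.71, 8.45 and 8.01 in standard arginine and 8.23, 7.91 and 8.31 in high arginine. No low-arginine library reached down to the other media, and the rise was 0.30 (SE 0.07, adjusted p = 0.00274). Of the exonic bases of Stx4a, 5.25% are shared with the opposite strand, where reads could be mixed if strand was not used in counting.

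As shares of that summed level, Stx4a made up 29.3% ± 0.685 in low arginine against 43.5% ± 0.227 in standard arginine, and Stx1a 33.2% ± 2.46 against 22.1% ± 0.604 (SD, n = 3). The order of the first 2 syntaxins in level per length was exchanged in low arginine, with Stx1a ahead in all 3 low-arginine libraries. In high arginine the shares were 43.3% ± 0.426 for Stx4a and 22.0% ± 0.556 for Stx1a. Stx2 and Stx3, syntaxins found in many epithelial and secretory cells, were not called, with log2 changes of -0.11 and 0.13 in low arginine.

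Snap25, the palmitoylated t-SNARE that pairs with Stx1a and is cut by botulinum toxin (chromosome 2, 136713453 to 136782428), was the 1 gene called lower in both media. It had 14.0, 13.8 and 13.3 FPKM in low arginine, 18.2, 18.9 and 20.4 in standard arginine and 13.8, 14.3 and 14.6 in high arginine. All 6 libraries from altered media lay under all 3 standard ones. The fall was 0.45 in low arginine (SE 0.06, adjusted p = 5.19e-05) and 0.40 in high arginine (SE 0.06, adjusted p = 0.0239), both measured against the same 3 standard libraries. Between high and low arginine the log2 difference was 0.05 (adjusted p = 0.432). The high-arginine call did not hold in every fit: the change kept its size, between -0.44 and -0.36, but the adjusted p went above 0.05 when any one of 6 libraries was left out (low 3, standard 1, standard 2 or any high-arginine library), as high as 0.122 without standard library 2. Snap23, the form of Snap25 found in most tissues, had a log2 change of -0.02 in low arginine and was not called. Of the summed level of Snap23 and Snap25, Snap25 was 60.0% ± 2.85 in low arginine, 67.4% ± 0.265 in standard arginine and 60.0% ± 1.03 in high arginine.

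**Figure D1:**
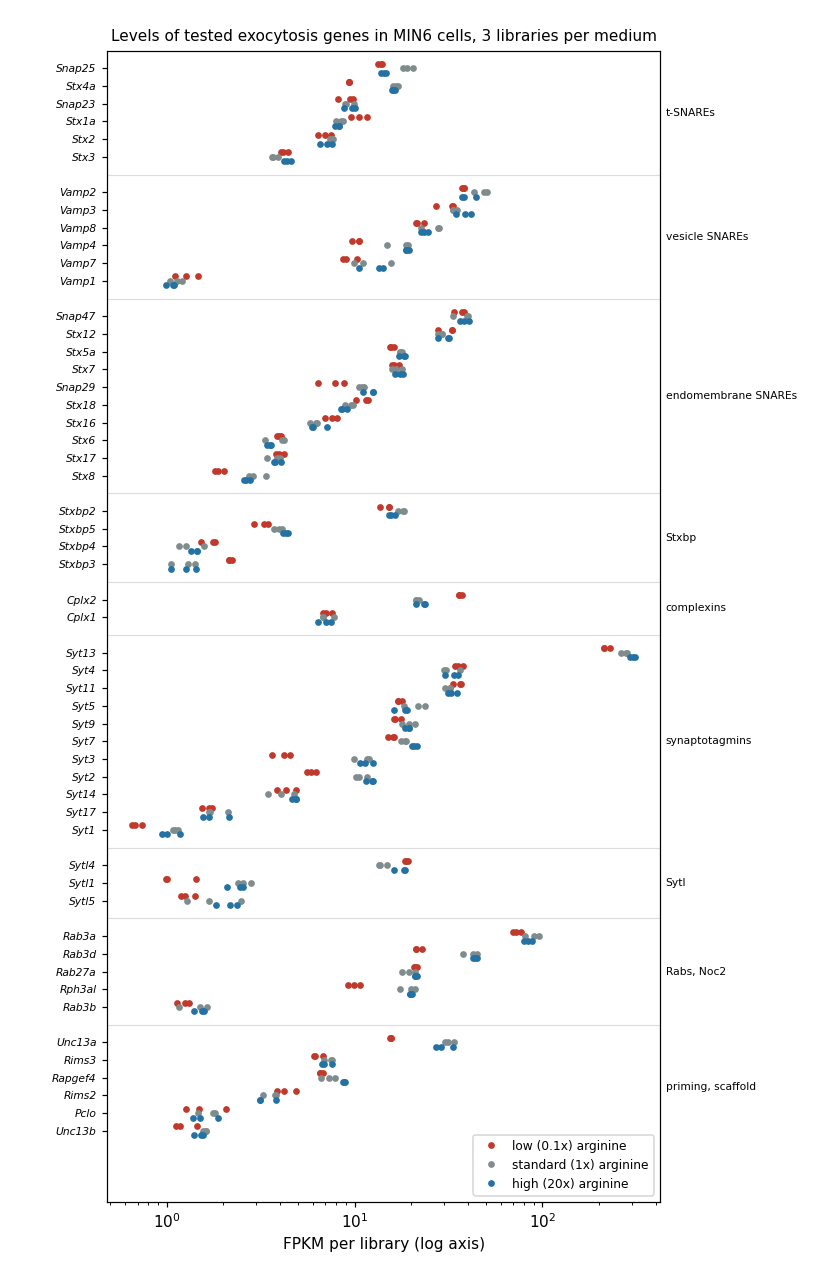
FPKM of 53 tested exocytosis genes in every library on a log axis, grouped by role and ordered by level within a role, with 1 point per library and 3 libraries per medium (low, standard and high arginine, from top to bottom within each gene). Syt13 is the most abundant, and the red points stand left of the others for Stx4a, Syt3, Syt2, Rab3d, Rph3al and Unc13a and right of them for Cplx2 and Stxbp3.

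Among the vesicle SNAREs, 3 of the 6 tested fell in low arginine and none rose, against 31.9% and 30.3% of all genes. Vamp2, the granule SNARE that tetanus toxin cuts (chromosome 11, 69088490 to 69092384), had 38.2, 37.2 and 38.1 FPKM in low arginine, 49.1, 50.5 and 43.1 in standard arginine and 44.2, 38.2 and 37.2 in high arginine. The low-arginine libraries stood clear of the standard ones, while high arginine had 1 library above the lowest standard one. Its fall in low arginine was 0.32 (SE 0.08, adjusted p = 0.00442), and the log2 change in high arginine was -0.25 (adjusted p = 0.201). Vamp4 (chromosome 1, 162570515 to 162599084), a SNARE of the trans-Golgi network and of maturing granules, had the largest fall of this group. Its values were 9.74, 10.6 and 10.6 FPKM in low arginine, 14.8, 18.8 and 19.4 in standard arginine and 18.7, 18.8 and 19.5 in high arginine. One standard library was lower than the rest, yet still above all of low arginine, and the fall was 0.72 (SE 0.09, adjusted p = 4.49e-05). Vamp8, which acts in late endosomes and in fusion of newly arriving granules, had 23.4, 21.2 and 21.6 FPKM in low arginine, 27.7, 28.1 and 22.7 in standard arginine and 24.5, 23.5 and 22.6 in high arginine. It was the only called gene whose low and standard libraries overlapped, with a fall of 0.23 (SE 0.08, adjusted p = 0.0306) that was no longer called when any of 4 libraries (low 2 or 3, standard 1 or 2) was left out (adjusted p 0.0838 to 0.114). Vamp3 (cellubrevin), Vamp7 and Vamp1 were not called, at -0.13, -0.34 and 0.10. Vamp7 had a wide error (SE 0.15), and whether it was called changed with the fit: adjusted p was 0.0701 here, 0.0446 with the filter at a mean of 5 FPKM, 0.0358 with voom weights and 0.0223 without standard library 2, where the log2 change was -0.47.

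The SNAREs of the Golgi, endosomes, lysosomes and autophagosomes had 2 rises and 3 falls among 10 tested, against 30.3% and 31.9% of all genes. Their median log2 change was 0.00, and their summed level was 136 ± 4.55 FPKM in low arginine against 138 ± 3.08 in standard arginine. Snap29, which joins autophagosomes to lysosomes with Stx17, had 6.39, 8.76 and 7.90 FPKM in low arginine, 11.3, 10.5 and 10.98 in standard arginine and 11.1, 12.6 and 12.6 in high arginine. Every low-arginine library was below every other one, and the fall was 0.47 (SE 0.09, adjusted p = 0.00142). Stx8, a late endosomal syntaxin, had 1.798, 2.02 and 1.88 FPKM in low arginine, 2.73, 3.38 and 2.87 in standard arginine and 2.57, 2.79 and 2.65 in high arginine. These low-arginine values did not touch those of the other media, and the fall was 0.46 (SE 0.08, adjusted p = 0.000378). Stx16, a syntaxin of the trans-Golgi network, rose by 0.26 (SE 0.08, adjusted p = 0.0111). It had 8.02, 6.98 and 7.61 FPKM in low arginine, 6.21, 5.77 and 6.33 in standard arginine and 7.16, 5.96 and 6.04 in high arginine, where 1 high-arginine library reached into the low-arginine range. Stx18, the endoplasmic reticulum syntaxin, rose by 0.23 and Stx5a of the Golgi fell by 0.15, each without overlap, but both were lost on leaving out 1 library (Stx18 without low 3, adjusted p 0.0556; Stx5a without low 1, low 3, standard 1 or standard 2, up to 0.0883). Snap47, Stx7, Stx6, Stx17 and Stx12 were not called, at log2 changes of -0.04, -0.03, 0.03, 0.07 and 0.11. Of these genes, Stx18 shares 12.5% of its exonic bases with Nsg1 on the other strand, Snap47 11.58% with Jmjd4 and Snap29 1.74% with Pi4ka.

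The Munc18 proteins, which hold syntaxins and guide SNARE assembly, moved in both directions. Stxbp2 (Munc18-2) had 13.7, 15.2 and 15.3 FPKM in low arginine, 18.0, 18.4 and 17.0 in standard arginine and 16.4, 15.6 and 15.3 in high arginine. It fell by 0.26 in low arginine (SE 0.06, adjusted p = 0.00327), and in high arginine, where no library reached the standard ones, the log2 change of -0.17 was not called (adjusted p = 0.244). Stxbp3 (Munc18c, chromosome 3, 108793176 to 108840526), known as the partner of syntaxin 4, had 2.15, 2.14 and 2.23 FPKM in low arginine, 1.29, 1.06 and 1.41 in standard arginine and 1.05, 1.26 and 1.43 in high arginine. It moved against Stxbp2, with a rise of 0.50 (SE 0.09, adjusted p = 0.000676) on 117 to 336 reads per library, in the same medium in which Stx4a fell. Stxbp5 (tomosyn), a decoy for vesicle SNAREs that holds back fusion, fell by 0.22 (adjusted p = 0.0123), a call that ended without low library 3 (-0.17, adjusted p = 0.056). Stxbp4 (Synip), another syntaxin 4 binder, had a log2 change of 0.21 with an adjusted p of 0.0578. Quantile normalization, which forces the same distribution on each library, ended the calls of Syt13 and Rab3a in low against standard arginine without changing their sign, at -0.09 for Syt13 and -0.10 for Rab3a (adjusted p 0.0695 and 0.17).

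Cplx2 (chromosome 13, 54371349 to 54383917) had the largest rise of the 55 genes on the log2(FPKM + 1) scale. In FPKM itself the rise of Stxbp3, a low gene, was about as large. Complexins clamp partly assembled SNARE complexes and then help calcium trigger fusion. Cplx2 had 37.3, 36.1 and 36.1 FPKM in low arginine, 21.4, 21.3 and 22.0 in standard arginine and 21.1, 23.6 and 23.3 in high arginine. The low-arginine libraries were close together and far above all others, and the rise was 0.73 (SE 0.06, adjusted p = 1.41e-06). Cplx1 was not called: it had 7.57, 7.07 and 6.76 FPKM in low arginine, 7.81, 6.76 and 6.79 in standard arginine and 7.46, 7.09 and 6.37 in high arginine. Its groups overlapped fully, with a log2 change of 0.00 (SE 0.07, adjusted p = 0.967). Cplx2 was 83.6% ± 0.554 of the summed complexin level in low arginine, 75.2% ± 1.75 in standard arginine and 76.5% ± 2.35 in high arginine.

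The synaptotagmins had 7 falls and 1 rise among 11 tested, where 31.9% of all genes fell and 30.3% rose. Their summed level was 357 ± 14.0 FPKM in low arginine, 426 ± 12.2 in standard arginine and 458 ± 12.3 in high arginine. Syt3 (chromosome 7, 44384102 to 44400187), a calcium-binding form with high affinity, was the 1 gene of the 55 past a 2-fold fall on the log2(FPKM + 1) scale. It had 4.53, 3.64 and 4.24 FPKM in low arginine, 11.6, 11.99 and 9.98 in standard arginine and 12.5, 11.4 and 10.7 in high arginine. No low-arginine library came near the other media, and the fall was 1.25 (SE 0.09, adjusted p = 8.23e-07). Syt2 (chromosome 1, 134646677 to 134762593), a fast calcium sensor of nerve endings, followed with 6.22, 5.87 and 5.55 FPKM in low arginine, 11.7, 10.5 and 10.2 in standard arginine and 12.6, 12.4 and 11.51 in high arginine. Its low-arginine libraries were again separate, with a fall of 0.78 (SE 0.07, adjusted p = 3.19e-06). Syt7, the slow, high-affinity sensor with a known role in insulin secretion (chromosome 19, 10389090 to 10453181), had libraries ordered by dose. They gave 16.1, 16.1 and 15.0 FPKM in low arginine, 18.9, 18.5 and 17.6 in standard arginine and 21.4, 20.8 and 20.1 in high arginine, with no overlap between any of the media. It fell by 0.21 in low arginine (SE 0.05, adjusted p = 0.00633), and its log2 change in high arginine of 0.17 was not called (adjusted p = 0.209). Rescaled to TPM, the log2 change of Syt7 was -0.10 and was not called (adjusted p = 0.112).

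Syt13, which does not bind calcium, was the most abundant gene of the machinery (chromosome 2, 92915098 to 92956058). It had 212, 230.3 and 214 FPKM in low arginine, 281, 279 and 262 in standard arginine and 303, 310.5 and 292 in high arginine. The media did not overlap here either, with a fall of 0.32 in low arginine (SE 0.06, adjusted p = 0.000539) and a log2 change of 0.14 in high arginine (adjusted p = 0.297). Syt13 alone made up 21.5% ± 0.658 of the summed FPKM of the 76 genes in low arginine, 22.8% ± 0.271 in standard arginine and 24.6% ± 0.374 in high arginine. Syt1, the sensor of fast synaptic release, fell by 0.32 (adjusted p = 0.00627) at a level of 0.691 ± 0.0442 FPKM in low arginine against 1.11 ± 0.0386 in standard arginine. It was below 1 FPKM in all 3 low-arginine libraries and passed the filter only through the other media, where it is higher. Syt5 and Syt9, both calcium sensors found on dense-core granules, fell by 0.27 and 0.20, and Syt11, which lacks calcium binding, rose by 0.17. Those 3 calls were the weakest of the family (adjusted p 0.0208, 0.0213 and 0.0305), and each was lost when any of 4 libraries was left out (standard 1, standard 2 and low 1 for all 3, with low 3 for Syt5 and Syt9 and low 2 for Syt11). Syt4, Syt14 and Syt17 were not called, at 0.15, 0.08 and -0.09.

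The calcium-binding synaptotagmins (Syt1, Syt2, Syt3, Syt5, Syt7 and Syt9, with Syt6 and Syt10 at or near 0) summed to 60.5 ± 1.44 FPKM in low arginine, 82.1 ± 6.04 in standard arginine and 82.7 ± 4.13 in high arginine. Within that sum Syt3 was 6.84% ± 0.832 in low arginine against 13.6% ± 0.310 in standard arginine, and Syt2 9.71% ± 0.444 against 13.2% ± 0.906. Syt7 held 26.0% ± 0.556 in low arginine and 22.4% ± 1.03 in standard arginine, so the smaller sum in low arginine was weighted towards Syt5, Syt7 and Syt9. In high arginine Syt5 made up 21.7% ± 0.713, below both other media.

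**Figure D2:**
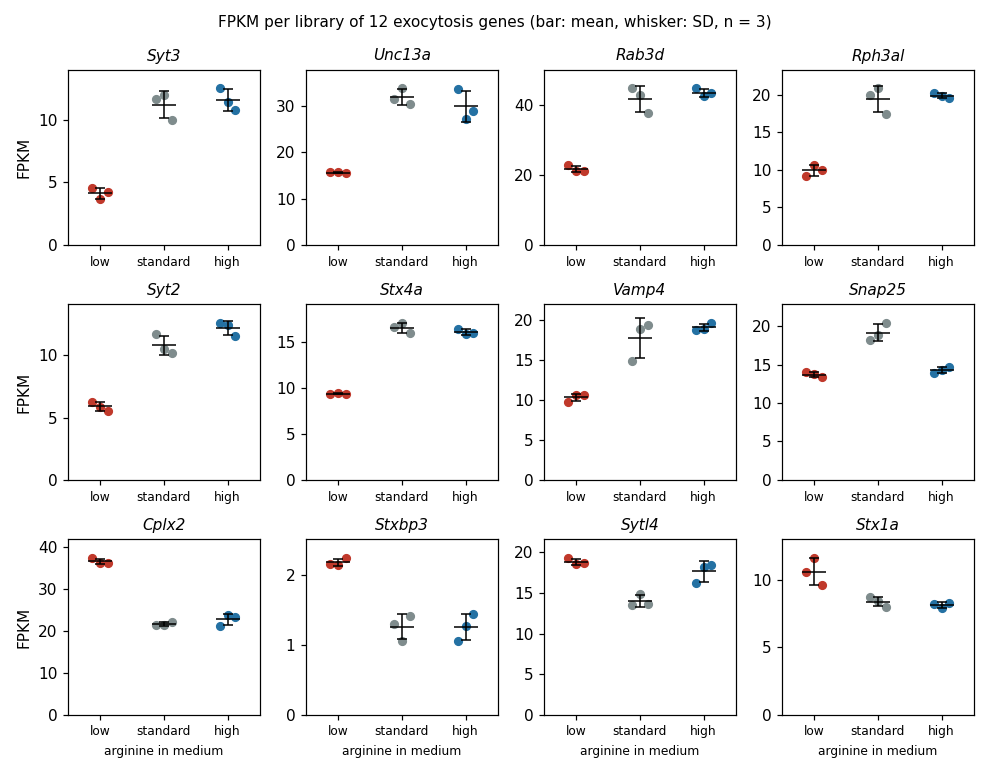
FPKM of 12 genes in each library (points), with the mean as a bar and the SD as a whisker, 3 libraries per medium, each axis starting at 0. The low-arginine points are separate from the standard ones in all 12 panels, and the high-arginine points lie apart from the standard ones for Snap25 and Sytl4.

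Sytl4 (granuphilin, chromosome X, 133936385 to 133981812), the Rab27a effector that docks insulin granules and slows their fusion, had 19.3, 18.5 and 18.7 FPKM in low arginine, 13.6, 14.9 and 13.6 in standard arginine and 16.2, 18.2 and 18.5 in high arginine. Both altered media stood above standard with no overlap. The rise in low arginine was 0.40 (SE 0.06, adjusted p = 0.000279), and in high arginine the log2 change of 0.31 (SE 0.06) had an adjusted p of 0.0737, the smallest among the 54 genes not called there. Sytl1, another Rab27 effector, had 0.998, 0.994 and 1.44 FPKM in low arginine, 2.55, 2.80 and 2.40 in standard arginine and 2.10, 2.54 and 2.46 in high arginine. It was lower in every low-arginine library, by 0.75 (SE 0.10, adjusted p = 7e-05), on 66 to 154 reads per library. Low-arginine libraries 1 and 2 were below 1 FPKM, so Sytl1 passed the filter only through the other media, where it is higher. Sytl5 varied widely in standard arginine and was not called, at -0.28 (adjusted p = 0.0964). Sytl4 made up 88.6% ± 0.823 of the summed level of the family in low arginine, 76.1% ± 2.48 in standard arginine and 79.7% ± 1.27 in high arginine.

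Among the granule GTPases and their effector, Rab3d and Rph3al had nearly equal falls. Rab3d (chromosome 9, 21907491 to 21918192), a Rab of exocrine and endocrine granules, had 22.9, 21.2 and 21.3 FPKM in low arginine, 44.8, 42.8 and 37.7 in standard arginine and 44.8, 42.5 and 43.6 in high arginine. All 3 low-arginine libraries lay far below the lowest of the others, and the fall was 0.91 (SE 0.07, adjusted p = 1.3e-06). Rph3al (Noc2, chromosome 11, 75830999 to 75938429), a Rab3 and Rab27 effector needed for normal granule release in endocrine cells, had 9.25, 10.6 and 9.93 FPKM in low arginine, 20.0, 20.9 and 17.4 in standard arginine and 20.3, 19.8 and 19.6 in high arginine. It too was separate in low arginine, with a fall of 0.90 (SE 0.07, adjusted p = 2.23e-06). Rab3a, the most abundant Rab3, had 76.7, 72.1 and 69.7 FPKM in low arginine, 89.9, 95.3 and 80.7 in standard arginine and 88.0, 83.9 and 79.6 in high arginine. It fell less, by 0.28 (SE 0.07, adjusted p = 0.00608), without overlap between low and standard arginine, and 1.3% of its exonic bases are shared with Mpv17l2 on the other strand. Rab3a was 76.0% ± 0.282 of the summed Rab3 level in low arginine against 67.2% ± 1.17 in standard arginine, and Rab3d 22.7% ± 0.330 against 31.7% ± 1.09. Rab27a, which carries granules to the cortex, had 21.1, 21.4 and 20.8 FPKM in low arginine, 17.8, 21.1 and 19.5 in standard arginine and 21.02, 21.1 and 21.5 in high arginine. Its groups overlapped, and its log2 change of 0.11 was not called (adjusted p = 0.133). Rab3b, at -0.13, was not called.

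Of the priming and scaffold genes, Unc13a fell most. Unc13a (Munc13-1, chromosome 8, 71624417 to 71671757), the protein that opens syntaxin and readies granules for release, had 15.7, 15.6 and 15.4 FPKM in low arginine, 31.4, 33.7 and 30.3 in standard arginine and 33.5, 27.0 and 28.9 in high arginine. The low-arginine libraries were nearly identical and far below the rest, and the fall was 0.98 (SE 0.08, adjusted p = 1.61e-06). Its exons share 3.92% of their bases with Colgalt1 on the other strand. Unc13b (Munc13-2), at 1.45, 1.18 and 1.116 FPKM in low arginine, 1.62, 1.62 and 1.56 in standard arginine and 1.56, 1.53 and 1.40 in high arginine, fell by 0.21 (SE 0.08, adjusted p = 0.038). Its low and standard libraries did not overlap, but the call was lost when any of 6 libraries was left out (low 2, low 3, any standard library or high 2, with adjusted p 0.0531 to 0.132). Rims3, a short Rim form, had 6.76, 6.10 and 6.19 FPKM in low arginine, 7.59, 7.48 and 6.84 in standard arginine and 7.63, 6.68 and 6.87 in high arginine. Its fall of 0.18 (SE 0.07, adjusted p = 0.04) was likewise lost without low 2, low 3, standard 1, standard 2 or high 3 (adjusted p 0.0534 to 0.123), and low and standard libraries came within 0.1 FPKM of each other.

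The remaining scaffold genes were not called in low against standard arginine. Rims2, the Rim of the beta cell, had 4.86, 3.88 and 4.24 FPKM in low arginine, 3.78, 3.25 and 3.82 in standard arginine and 3.81, 3.14 and 3.16 in high arginine. Its low-arginine libraries were all higher than the others, at a log2 change of 0.21 (SE 0.09, adjusted p = 0.0697), and against high arginine the difference passed the test. Rapgef4 (Epac2), the cAMP sensor through which incretins raise insulin release, had 6.82, 6.53 and 6.54 FPKM in low arginine, 7.34, 6.65 and 7.91 in standard arginine and 8.65, 8.92 and 8.82 in high arginine. The high-arginine libraries were the highest of all, yet neither step was called against standard arginine (log2 change -0.12 in low arginine, adjusted p = 0.123, and 0.24 in high arginine, adjusted p = 0.139). Pclo (Piccolo), a very large active zone scaffold that binds Epac2 and Rim2, had 2.07, 1.48 and 1.26 FPKM in low arginine, 1.798, 1.48 and 1.76 in standard arginine and 1.86, 1.51 and 1.38 in high arginine. Its spread within low arginine was the widest of all 55 genes in that medium (25.9% of the mean), and its log2 change was -0.05 (adjusted p = 0.73).

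Besides Syt7, 7 of the smaller falls were not called with TPM. They were those of Vamp8, Syt5, Syt9, Stx5a, Rims3, Stxbp5 and Unc13b, whose log2 changes were then between -0.19 and -0.03. On the log2(FPKM + 1) scale, 9 called genes were past a 1.5-fold change in low against standard arginine. Cplx2 was higher, and Syt3, Unc13a, Rab3d, Rph3al, Syt2, Stx4a, Sytl1 and Vamp4 were lower. All kept their direction and call under every alternative in which they were tested. Sytl1 is under the stricter filter of a mean of 5 FPKM, and passed the filter used here only through standard and high arginine.

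**Figure D3:**
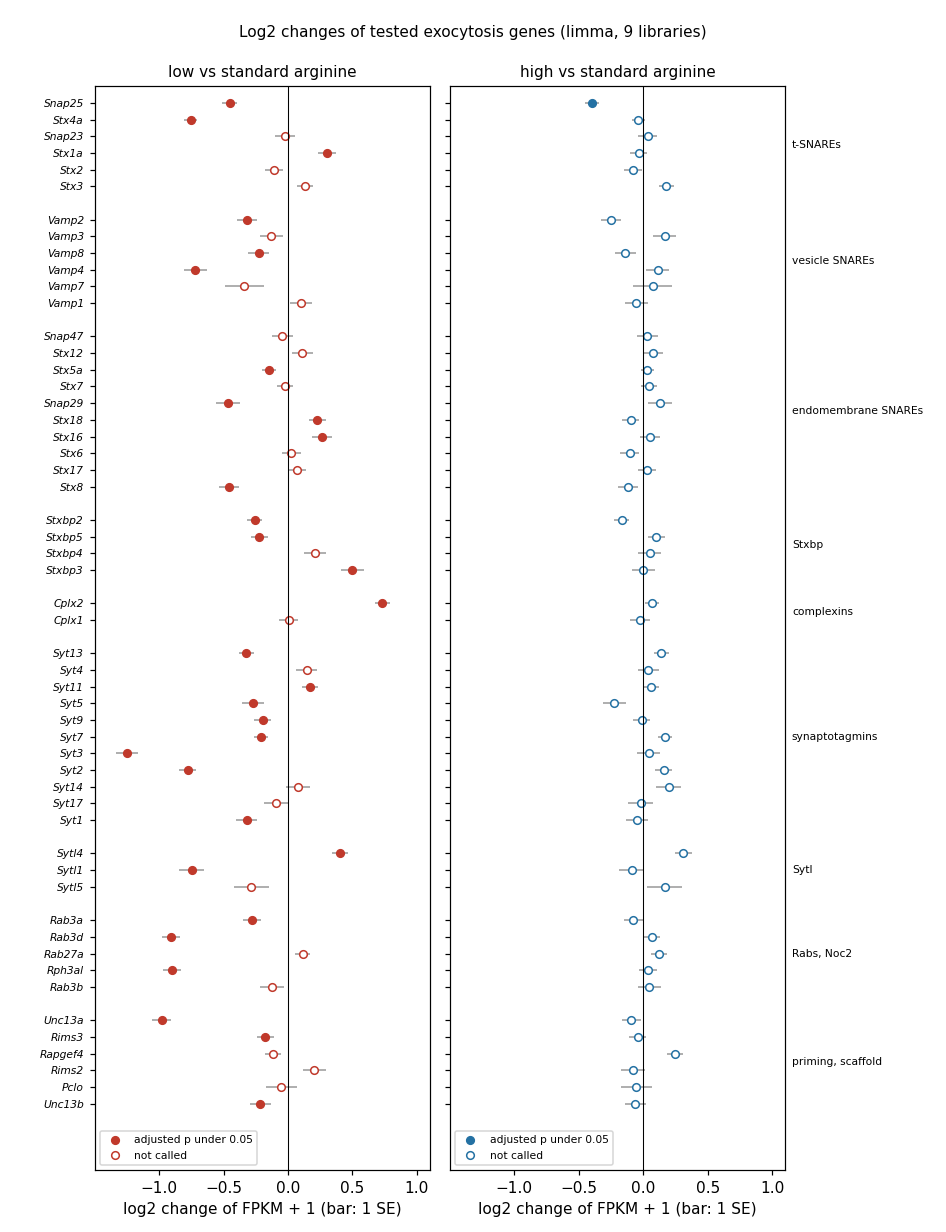
Log2 change of FPKM + 1 with its SE for 53 tested genes, low against standard arginine on the left and high against standard arginine on the right, with filled points for an adjusted p under 0.05. On the left 24 filled points lie below 0 and 7 above, and on the right only Snap25 is filled.

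By role, then, the summed level in low arginine was 0.671 times that in standard arginine for priming and scaffold proteins, 0.743 times for the granule Rabs with Noc2, 0.793 times for syntaxin-binding proteins, 0.807 times for vesicle SNAREs, 0.829 times for t-SNAREs and 0.838 times for synaptotagmins. It was 1.52 times for complexins and 1.15 times for synaptotagmin-like proteins. Single genes weighed heavily in some of these sums. The priming and scaffold sum was 35.8 FPKM in low and 53.4 in standard arginine, of which Unc13a was 15.6 and 31.8. Syt13 was 219 and 274 FPKM within synaptotagmin sums of 357 and 426. Of the 2 tested complexins, Cplx2 rose and Cplx1 was not called. The level summed over all 76 genes was 1015 ± 22.1 FPKM in low arginine, 1201 ± 39.2 in standard arginine and 1229 ± 23.6 in high arginine. The FPKM summed over every gene of a library was lower in low arginine too, at 336716 to 343486 against 354799 to 383847 in standard arginine. These sums and ratios use FPKM as deposited and are not corrected for that difference. The low-arginine sums of all roles except the Golgi and endosome SNAREs lay outside the range of the standard ones.

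**Figure D4:**
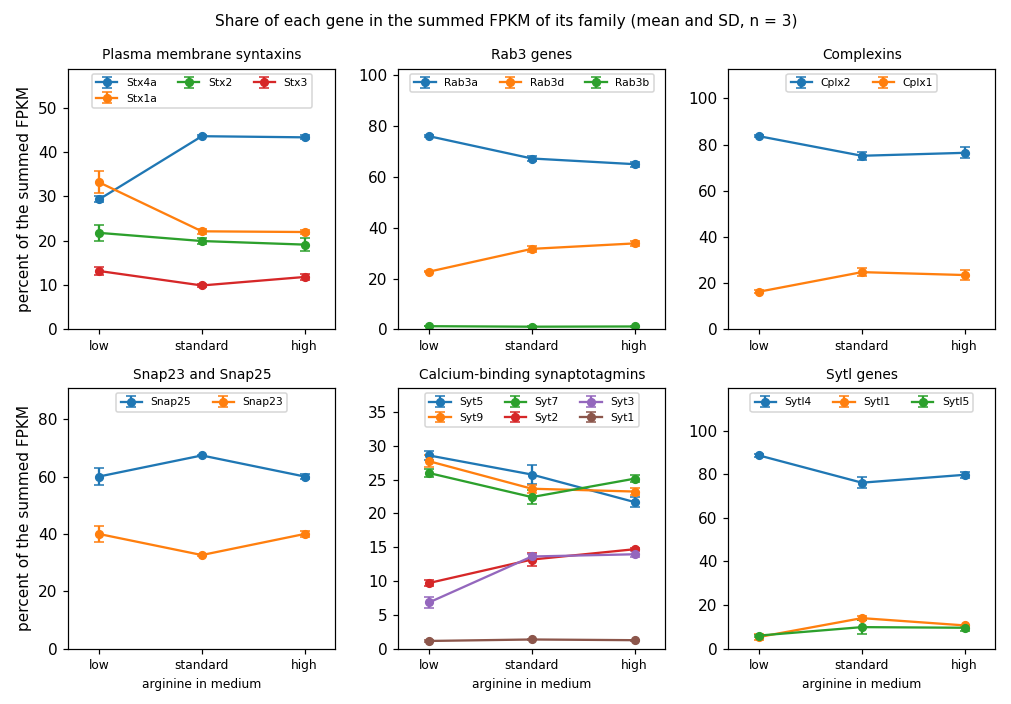
Share of single genes in the summed FPKM of their family, as the mean and SD of 3 libraries per medium, with each axis starting at 0. In low arginine Stx1a is above Stx4a, Rab3a and Sytl4 hold larger shares, and Syt3 and Syt2 hold smaller ones, while Snap25 has its largest share in standard arginine.

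In high against standard arginine no gene but Snap25 was called. The other 54 of the 55 genes were not called, with log2 changes between -0.25 and 0.31, and 1.82% were called against 0.309% of all genes (0.138% higher and 0.171% lower). A missed threshold does not show that levels were equal: 10 of the 55, Snap25 among them, had an unadjusted p under 0.05, which is 18.2% against 14.3% of all genes. The median log2 change was 0.03 over the 55 genes and 0.01 over all genes. Libraries of both media did not overlap in 9 genes, against 18.5% of all genes. High arginine was higher in 6 of them and lower in 3, against 10.4% and 8.14% of all genes. By limma with weights for library quality the counts were 3 higher and 5 lower, 14.5% of the 55 against 10.8% of all genes, so the number called in this comparison was not stable.

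Between the extremes, high against low arginine, 23 genes were higher and 6 lower, 52.7% of the 55 against 61.5% of all genes (32.3% higher and 29.2% lower). The libraries did not overlap in 34 genes, against 68.4% of all genes, with 25 higher and 9 lower against 35.3% and 33.1%. With TPM 18 of the 55 were higher and 10 lower, with a median of -0.01 against 0.09 as deposited, while over all genes the share of calls that were higher was 39.5% against 52.5% as deposited and the median -0.10. This comparison uses the same low-arginine libraries as the first one, so its values are not a second measurement. It is, in the fit used, also the test of whether the responses to high and low arginine differ. Syt3 had the largest difference on the log2(FPKM + 1) scale, 1.29 (SE 0.09, adjusted p = 6.44e-07), followed by Rab3d at 0.97, Rph3al at 0.94 and Syt2 at 0.93. Rapgef4, at 0.36 (SE 0.06, adjusted p = 0.000509), and Rims2, at -0.29 (SE 0.09, adjusted p = 0.0179), passed here and not against standard arginine. The Rims2 call was lost without low 1, high 2 or high 3 (adjusted p up to 0.0686). Vamp3, at 0.30 (adjusted p = 0.0134), Vamp7, at 0.41 (adjusted p = 0.034), and Sytl5, at 0.45 (adjusted p = 0.0157), were also called here and not against standard arginine, and each was lost on leaving out single libraries (high 2 for all 3, and low 1, low 2 or high 3 for Vamp7). For Snap25, Vamp2 and Stxbp2, which fell in low arginine, the high and low libraries did not differ by this test (log2 differences 0.05, 0.07 and 0.09). The same held for Syt5, Vamp8, Rims3 and Unc13b, which also fell in low arginine (0.05, 0.09, 0.13 and 0.15). In high against standard arginine the log2 change of Syt5 was -0.22 and was not called (limma adjusted p = 0.289).

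Abundance spanned a wide range. By mean FPKM in standard arginine, 2 genes, with Syt13 the highest, were at 100 or more, 8 between 30 and 100, 19 between 10 and 30, 8 between 5 and 10, 18 between 1 and 5 and 21 below 1. The median coefficient of variation within a medium was 5.97% in low arginine, 7.62% in standard arginine and 5.57% in high arginine. All 21 genes below 1 FPKM were those left untested. Those with the most reads over the 9 libraries were Syt12 with 363, Vamp5 with 277, Stxbp6 with 142 and Stx11 with 140. By mean FPKM in standard arginine Vamp5, of 2707 bases, stood above Syt12, of 5539 bases. The reads of Stx11 were 82 in the low-arginine, 28 in the standard-arginine and 30 in the high-arginine libraries. Unc13d had 71 reads, Syt16 52, Syt6 30, Vamp9 13 and Syt15 12. Rims4, Stx19, Unc13c, Sytl3, Rab3c, Cplx3, Sytl2 and Rims1 had 8 or fewer. Rab27b, Cplx4, Syt10 and Syt8 had 0 reads in all 9 libraries, where a count of 0 allows up to 3 reads and covers counting error only. Within families, Rims1 and Rims4 were near 0 beside Rims2 and Rims3, and Rab27b was at 0 beside Rab27a.

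Genes of the same pathway that the naming rule left out were counted from 4 lists. Beside the low-arginine counts that follow, 30.3% of all genes tested rose and 31.9% fell against standard arginine. Of NSF, the SNAP adaptors and the tethers, all 13 were tested, 4 rose and 4 fell in low arginine, with a median log2 change of 0.06. Nsf, the ATPase that takes SNARE complexes apart, fell by 0.43 (SE 0.06, adjusted p = 0.00013) to 17.1 ± 1.22 FPKM in low arginine, against 23.4 ± 1.04 in standard arginine. The exocyst tethers Exoc6b and Exoc2 rose by 0.57 and 0.52. Among 17 further SNAREs and Sec1/Munc18 proteins of the inner membranes 3 rose and 5 fell (median -0.12), with Vps33b at -0.34, Vti1b at -0.28 and Ykt6 at 0.29 the largest. Of 39 other active zone, priming and granule proteins 26 were tested, of which 6 rose and 8 fell (median -0.02). Rabac1, a binding protein of prenylated Rabs, fell by 1.24 to 108 ± 6.52 FPKM in low arginine, against 257 ± 30.1 in standard arginine. Sv2a, a synaptic vesicle and granule glycoprotein, fell by 1.00, and Madd, the exchange factor for Rab3 and Rab27, by 0.69. In the list of glucose sensing, the KATP channel and calcium channels, 7 of 9 were tested, with 2 rises and 3 falls (median -0.12). Kcnj11, the pore of the KATP channel, rose by 0.95 to 61.2 ± 4.81 FPKM in low arginine, against 31.1 ± 1.55 in standard arginine, and Cacna1d, a calcium channel gene, rose by 0.37. In high against standard arginine none of the 4 lists had a called gene by limma, with 2, 3, 5 and 1 members at an unadjusted p under 0.05, where 14.3% of all genes had one.

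The libraries carried the markers of the labelled cell. Of 16 beta cell markers 15 were tested, with Ins2 at 52075 ± 596 FPKM in low arginine and 50608 ± 3623 in standard arginine. In low against standard arginine 6 of them rose and 6 fell, where 30.3% of all genes rose and 31.9% fell. The glucose transporter gene Slc2a2 was under the filter in all media. Of 10 markers of the other islet cells 4 were tested, 2 higher and 2 lower in low arginine, with a summed level of 9059.6 to 11575 FPKM in low arginine against 6324 to 7198 in standard arginine, most of it Sst. Many of the 76 genes are also neuronal: of 10 neuron markers 5 were tested, and Tubb3, Nefm and Nefl fell in low arginine, with a summed level of 160 to 172 FPKM in low arginine, 335 to 343 in standard arginine and 341 to 367 in high arginine. The part of these shifts in the changes above was not tested. Stromal, immune and acinar or duct markers had 0 tested genes, with summed levels of at most 0.219, 0.537 and 0.149 FPKM in any library, and Ptprc, Adgre1, Krt19, Prss1, Prss2, Pnlip and Amy2a5 at 0.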

How the data were processed

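RNA of 9 libraries of MIN6 cells was sequenced from total RNA with a directional kit, per the labels' protocols. The authors deposited FPKM per gene, 1 column per library, with gene lengths, per the file headers. CASAVA 1.8, HISAT2 2.0.5 and featureCounts 1.5.0-p3 are named in the submitters' processing notes, and whether counting used strand is not stated in them. They name mm9, yet the table matches GENCODE M21 in start and end for 98.33% of 54495 common gene IDs (73 of the 76 genes), so coordinates are GRCm38. Unused columns of per-sample values numbered 0.

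FPKM times gene length gave whole reads within 0.01 in 100% of values, 21550637 to 26300872 per library, which set the precision of a gene. Library sizes behind the FPKM were 0.9621 to 1.0767 times these reads, so a scale factor is already in the deposited values. Genes reaching 1 FPKM in 3 or more libraries were fitted with limma 3.58.1 (R 4.3.3) on log2(FPKM + 1), over all 9 libraries with medium as the only term and a prior variance trended on level, which left 6 residual degrees of freedom. Two-sided p-values were adjusted by Benjamini-Hochberg over the 12300 genes, at a threshold of 0.05. The fit was tested on simulated data. Replicate numbers were not taken as pairs.

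The genes and lists were chosen with earlier results of these data known. Of the 55 tested genes, a few are counted and summed but not reported singly here, and the others are named. Values in every library are given for 14 core genes of beta cell exocytosis, for up to 3 called genes per role with the largest change in low against standard arginine, and for genes called in high arginine; up to 3 called genes are named per pathway list. Alternatives were the pseudocount, the filter, TPM, quantile normalization, fits of 2 groups, the variance model, library weights, voom weights on rebuilt reads, a replicate block and leaving out each library. Promoters are RefSeq's, GRCm38.p6.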

Additional observations from a re-analysis of the deposited data

How the results depend on the processing

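Over the 55 genes, all 3 comparisons and every alternative, 2931 values kept direction and call, 53 gained a call, 96 lost one and 1 turned: Rab3a in high against low arginine, at -0.002979 with quantile normalization (adjusted p = 0.968). The number of genes that rose in low against standard arginine was 7, and 13 with TPM and 11 with library weights; the number that fell was 26 and moved by less than 1.5 times outside the leave-outs. In high against standard arginine it was 0 higher and 1 lower, with 3 higher and 5 lower under library weights, 1 higher with voom weights, 0 lower with no filter (72 genes tested) and 0 lower with only the 2 groups fitted. In high against low arginine 23 were higher and 6 lower, and 18 and 10 with TPM, which gave 3094 higher and 4735 lower calls over all genes, against 3967 and 3594 as deposited. Leaving out each library in turn gave 6 to 9 higher and 19 to 26 lower in low against standard arginine, 0 to 0 higher and 0 to 1 lower in high against standard arginine, and 18 to 23 higher and 4 to 7 lower in high against low arginine. Across these leave-outs 47.3% to 61.8% of the 55 were called in low against standard arginine, against 56.4% to 61.9% of all genes. The shares were 0.0% to 1.82% against 0.0% to 0.496% in high against standard arginine. In high against low arginine they were 40.0% to 54.5% against 55.6% to 64.0%. With TPM 56.4% of the 55 and 63.9% of all genes were called in low against standard arginine, and with library weights 69.1% and 67.2%. The cause of these shifts between fits was not tested.

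With the replicate number as a block, 8 genes were higher and 27 lower in low against standard arginine. The counts were 0 and 1 in high against standard arginine, and 24 and 6 in high against low arginine. These were 63.6%, 1.82% and 54.5% of the 55, against 65.7%, 0.715% and 65.5% of all genes. The numbers were not taken as pairs: 6 of 9 same-number pairs correlated above 0.1 in their deviations (-0.0355 to 0.243). Depth limits the genes near 1 FPKM, such as Sytl1 with 66 to 154 reads per library. The call of Snap25 in high arginine rests on single libraries.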
